A study of Mus musculus with 10 samples.

Results

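The regions described here are knockout m6A peaks that were listed away from the wild-type peaks of the same gene. A peak is an entry of a consensus list with a position, a strand, a gene name and exonic blocks. The entries were chosen by their measured positions. A knockout (KO) entry was taken when its gene name also occurred in the wild-type (WT) list and when it shared no exonic base with any WT entry on the same strand. This held for 762 of 3733 KO entries, in 685 genes, which is 26.5% of the 2879 KO entries that lay in a gene with a WT entry or over a WT entry. Of the other KO entries, 2117 lay over a WT entry and 854 lay in genes without a WT entry. The 762 are called displaced entries below. The name states where they were listed and not that a mark moved, since signal at the same place in WT may have stayed under the caller's threshold. The rule used the KO and WT positions, so the count and the distances to WT entries are descriptions without a test.

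The peaks come from m6A-seq of mouse brain (cortex with hippocampus), taken on postnatal day 5. RNA fragments are pulled down with an antibody to N6-methyladenosine (m6A) and compared with unselected input RNA. The WT group had 3 IP and 3 input libraries. The Mettl14 KO group, in which Nestin-Cre drives the deletion in the neuroepithelial lineage, had 2 IP and 2 input libraries. Cells outside that lineage would keep Mettl14, and the labels also name a culture medium, so whether RNA came from tissue or from cultured cells is not settled. Each genotype has a single deposited list with no value per library, so no difference has a replicate error and depth is unknown. In bulk samples fewer cells of a type and less RNA per cell cannot be told apart. Expression was not measured here, so markers of the labelled tissue could be checked only for peaks: 19 of 25 neuron markers carried a WT entry. So did 17 of 22 astrocyte and radial glia, 12 of 22 oligodendrocyte and 12 of 23 endothelial and mural markers. The counts were 10 of 21 for meningeal and choroid plexus, 8 of 22 for microglia and macrophage and 0 of 14 for blood cell markers. These counts do not settle the tissue.

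METTL14 holds the RNA for METTL3, the catalytic subunit with which it places most m6A on nascent mRNA, typically within long internal exons and around the stop codon in the last exon. Reader proteins of the YTH family bind the mark and steer splicing, decay and translation of neuronal transcripts. Antibodies against m6A also bind m6Am, a modified adenosine next to the mRNA cap that PCIF1 writes without METTL14, and they bind some unmodified RNA.

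Few displaced entries lay at an annotated transcript start. The start windows in the RefSeq promoter table (GRCm38.p6) cover 571 of the 762 entries by gene name, and 16 entries in 16 genes covered 19 such starts. The start bases are shown because they are the only stretch of these peaks for which sequence was at hand. Each line gives the 10 bases before the start and the first 20 transcribed bases, 5′ to 3′, with bases inside the KO peak in capitals.
Fxr2: cggcagcaggGGGAGGTGGAGGCCGTGGAG
Ppp3cb: cgcgatgcatGACGGTCTTAGCCCCTCTGA
Lhfpl3: gcgagggtgcAGACTCTAGAACTGGTGCTG
Marchf9: ggagccgccaTTTGCTACCGCCGAACGCAC
Chrm3: atctcctcccACTTGGAGCGCCTTCTGTCT
Nova1: ccggtgcagcGGCAGGAACTGCAAGCATGA
Syt2: gagcgagggaGCGGGAGGAGAGCCGCAGCG
Dazap1: GAGGCGCGGGGACGCGCAGCGACCGTTGGC
The windows are chr11:69632961-69632990 on the plus strand for Fxr2, which encodes a paralogue of the fragile X protein, and chr14:20546554-20546583 on the minus strand for the calcineurin gene Ppp3cb. They are chr5:22746044-22746073 (plus) for Lhfpl3, chr10:127060165-127060194 (minus) for the ubiquitin ligase gene Marchf9, and chr13:10360784-10360813 (minus) for the muscarinic receptor gene Chrm3. Nova1, a neuronal splicing factor gene (chr12:46818748-46818777, minus), the synaptotagmin gene Syt2 (chr1:134709290-134709319, plus) and Dazap1 (chr10:80265004-80265033, plus) were added after their values were seen. At 15 of the 19 starts an edge of the peak fell exactly on the annotated start, as in each printed line but Dazap1. The first transcribed base was A at 6 of the 19 starts (31.6%) and at 34.4% of all 32851 starts in the table. The letters GGAC, a core of the m6A consensus read on the transcribed strand, stood within the first 50 bases at 3 of 19 starts (15.8%), among them those of Fxr2 and Syt2, against 18.9% of all starts. Both shares among covered starts were near those of the table, but 19 starts in 16 genes are too few to tell a difference.

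Displaced entries lay at all distances from the WT entries of their gene. The gap to the nearest exonic base of such a WT entry, counted along the chromosome with introns included, had a median of 2378.5 bases (quartiles 624.5 and 12427.25, range 28 to 1368485). The gap was up to 100 bases for 48 entries, which is 6.30% (Wilson 95% interval 4.78 to 8.25), and over 20000 bases for 148, which is 19.4% (16.8 to 22.4). Intervals here cover counting error over entries only. More entries lay 3′ of the nearest WT entry (447, 58.7%, interval 55.1 to 62.1) than 5′ of it (315). The median gap was 1677 bases on the 3′ side and 4584 bases on the 5′ side. Entries on the 3′ side made up 152 of the 227 with a gap over 1000 and up to 5000 bases and 72 of the 148 with a gap over 20000. Against only the 3733 WT entries with the lowest p-values, the 3′ share was 38.7%, so most entries then lay on the 5′ side. That alternative changes both the number and the strength of the WT entries.

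**Figure D1:**
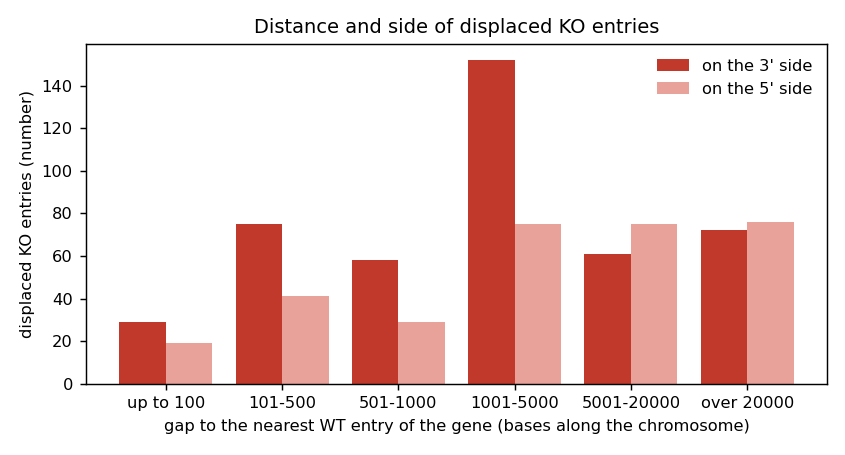
Number of displaced KO entries by the gap to the nearest WT entry of the same gene (bases along the chromosome, 6 classes) and by side. Dark bars (3′ side) are taller than light bars (5′ side) up to 5000 bases, with 152 of 227 entries in the class that ends at 5000, and lower in both classes beyond. The last class counts repeatedly a single place listed under 20 gene names.

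At the border of the rule, 21 displaced entries lay 28 or 29 bases from a WT entry. On the other side of it, 34 KO entries shared a single exonic base with a WT entry and were not taken. Among those just inside were Dcp1b, a gene of the mRNA decapping complex, with 61 bases ending 28 bases before its WT entry, and Cdk5r2, which encodes an activator of the neuronal kinase CDK5. Its displaced entry of 387 bases on chromosome 1 (74856455 to 74856841) began 29 bases after a WT entry of 654 bases, and 2 further KO entries lay inside that WT entry. Rnd1, which encodes a small GTPase, and Mapre2, which encodes a microtubule plus-end protein, also had a gap of 29 bases. In each of these genes the KO entry borders a WT entry, whereas the farthest ones lay at the opposite end of very long genes. The synaptic adhesion gene Il1rapl1, on the X chromosome, had its only WT entry (86746773 to 86746833) near the gene end, a displaced entry 4847 bases 3′ of it and another 1368485 bases 5′ of it, at 539 bases from the gene start. The gap was 1096100 bases in Prkg1, a cGMP-dependent kinase gene, 657698 in Ralyl, 641489 in Cntnap5c and 482217 in Chrm3.

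The midpoint of most displaced entries lay late in the gene, as it did for KO entries in genes without a WT entry. It fell in the last of 5 equal parts of the gene span for 59.5% of displaced entries (453 of 761 with an annotated span, interval 56.0 to 63.0), against 42.8% (905 of 2113) of the KO entries over a WT entry. For the 1631 WT entries of the same genes the share was 54.1% (51.7 to 56.5) and for all WT entries 51.9% (51.1 to 52.7). For KO entries in genes without a WT entry it was 59.0% (55.6 to 62.2), close to that of the displaced entries. Within 1000 bases of the gene end lay 18.0% of displaced entries (15.4 to 20.9), 9.87% of the WT entries of the same genes (8.52 to 11.4) and 7.52% of KO entries over a WT entry (6.48 to 8.73). The share was 15.9% of all WT entries (15.3 to 16.5), 16.1% of all KO entries and 35.6% of KO entries in genes without a WT entry (32.5 to 38.9), so displaced entries were near the values of the whole lists. Against the shortened WT list the share of displaced entries near the gene end was 9.86%. Near the gene start, within 200 bases, lay 19 displaced entries (2.50%) and 3.40% of all WT entries. Relative to all WT entries of its gene, a displaced entry lay 3′ of every one in 361 cases and 5′ of every one in 219, and between them in 182. Where the gene had several WT entries, these cases numbered 181, 102 and 182. The rule used the WT positions, so these places are descriptions.

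**Figure D2:**
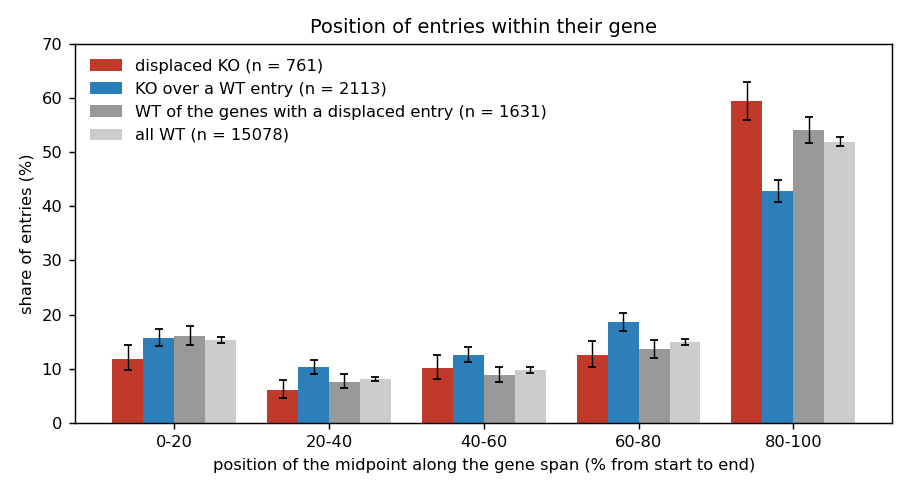
Share of entries (%) by the position of their midpoint along the gene span, in 5 equal parts from gene start to gene end, for displaced KO entries, KO entries over a WT entry, WT entries of the same genes and all WT entries. Error bars are Wilson 95% intervals, and in the last part displaced entries reach 59.5% against 42.8% for KO entries over a WT entry.

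Displaced entries were narrower than KO entries over a WT entry and as wide as KO entries in genes without a WT entry. Their median exonic width was 150 bases (quartiles 91 and 180, range 60 to 571), against 180 bases (121 and 240) for KO entries over a WT entry and 209.5 bases (121 and 331) for WT entries of the same genes. KO entries in genes without a WT entry also had a median of 150 bases (91 and 181). A width within 1 base of a multiple of 30 was found in 98.8% of them, and 129 were 61 bases or less. They spanned several exonic blocks in 23.8% (20.9 to 26.9), against 39.3% (37.2 to 41.4) of KO entries over a WT entry and 25.4% (22.6 to 28.4) of KO entries in genes without a WT entry. The 3 entries on 4 blocks lay in Kidins220, which encodes a scaffold of neurotrophin receptors (240 bases), in the anchoring protein gene Akap8 (181 bases) and in Mtss1, a gene of membrane and actin remodelling (150 bases).

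**Figure D3:**
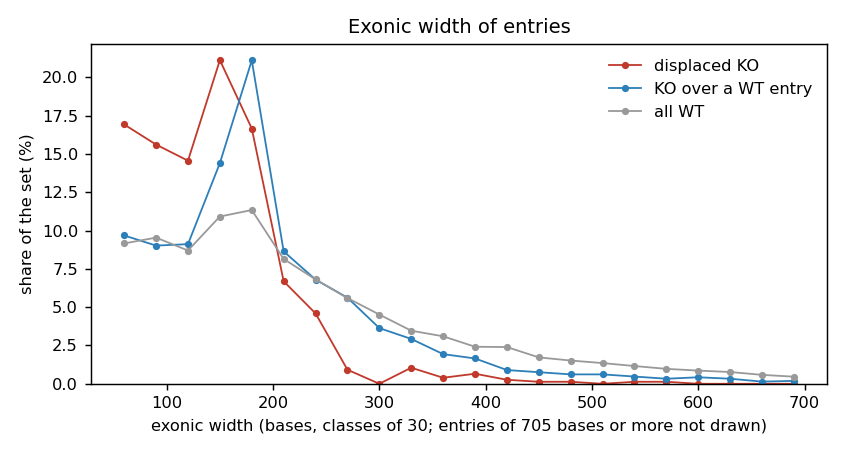
Share of each set (%) by exonic width in classes of 30 bases (entries beyond the drawn axis left out), for displaced KO entries, KO entries over a WT entry and all WT entries. The displaced entries, with a median of 150 bases, lie to the left of both other sets and reach 571 bases.

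By the p-value that the authors' caller gave, used here only to rank entries within the KO list, displaced entries were weaker than KO entries over a WT entry. In 5 classes of equal size over all KO entries, 10.5% of the displaced entries (8.52 to 12.9) were in the strongest and 28.3% (25.3 to 31.6) in the weakest. For KO entries over a WT entry these shares were 29.6% (27.7 to 31.5) and 14.4% (13.0 to 16.0), and for KO entries in genes without a WT entry 4.80% (3.56 to 6.45) and 26.3% (23.5 to 29.4). Of the 80 displaced entries in the strongest class, 20 were a single place listed under 20 gene names, described below, and without them, an alternative chosen after the data were seen, the share was 8.09%. Many entries carried p-values that recur across the KO list. A value shared by more than 10 genes was found in 43.0% of displaced entries (39.6 to 46.6), 29.7% of those over a WT entry and 71.4% of those in genes without a WT entry. Without such entries 434 displaced ones were left, and 291 were among the stronger 50% of the KO list. What part these recurring values have in the result was not tested.

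No WT entry was overlapped in 72.0% of genes with a displaced entry (68.5 to 75.2). Of the 7717 genes with a WT entry, 685 held a displaced entry (8.88%), and 493 of these (6.39% of the 7717) had no WT entry overlapped by any KO entry. The other 192 genes had at least 1 overlapped WT entry. Over all genes with a WT entry, 20.6% had an overlapped one, a lower share than among the 685. That base includes genes without any KO entry, whereas each of the 685 holds one by the rule. The comparison is therefore not of like genes. The WT entries of the 685 genes were overlapped in 17.2% (281 of 1634, interval 15.4 to 19.1), against 12.9% of all WT entries, with the same limit. A single displaced entry was listed in 616 genes, 2 in 61 genes and 3 in 8 genes. The share of genes holding one was larger where the gene had more WT entries, from 6.94% (6.19 to 7.79) of genes with 1 WT entry to 123 of 880 genes (11.8 to 16.4%) with 4 or more. It was also larger in longer genes, from 4.41% (3.49 to 5.55) in the shortest of 5 classes (up to 8806 bases) to 16.0% (14.2 to 17.9) in the longest (over 92917 bases). Genes with an overlapped WT entry were more common in longer genes too, at 15.0% in the shortest class and 25.2% in the longest. Both shares count genes without any KO entry. Median gene length was 56396.5 bases for the genes with a displaced entry and 27772.5 bases for all genes with a WT entry. Almost all displaced entries lay in protein-coding genes (742 of 761, 97.5%), as did 98.1% of all WT entries and 98.6% of KO entries over a WT entry. For KO entries in genes without a WT entry the share was 80.7%.

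The gamma protocadherins form the clearest case of shared members. These genes encode neuronal cell adhesion proteins, and in mouse each joins a variable first exon of its own to constant exons at the end of the cluster. Of the displaced entries, 20 overlapped at 1 place on chromosome 18, between 37839962 and 37840221 on the plus strand, under 17 Pcdhg names and 3 Gm names. Their widths were 210 to 240 bases. Their 42 WT entries lay elsewhere, with gaps of 14912 to 885199 bases, and none was overlapped. For Pcdhga1 the WT entry lay at 37663633 to 37663873 and the KO entry 176108 bases further 3′, at 1769 bases from the gene end. For Pcdhga10 the gap was 90957 bases and for Pcdhga9 100927 bases. The reads of a shared exon cannot be assigned to a single gene of the cluster, so these 20 entries are a single observation. Npcd with Nptxr and Akap2 with Pakap also shared a place, and the 762 entries stood for 741 distinct places.

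The genes with most displaced entries each held 3. In Tle1, which encodes a corepressor of the Groucho family, the WT entry of 301 bases (chr4:72200503-72200803) lay at the start of the gene. Its 3 KO entries of 151, 330 and 121 bases lay 914, 2204 and 3927 bases from the gene end and 89568, 88189 and 86570 bases from the WT entry. The WT and KO entries thus lay at opposite ends of the gene. In Ncam2, a neural cell adhesion gene on chromosome 16, the single WT entry of 121 bases was followed 6411, 6770 and 7877 bases further 3′ by KO entries of 181, 91 and 240 bases. Fign, which encodes the microtubule-severing protein fidgetin, had 1 WT entry of 61 bases and KO entries 1855, 2184 and 5596 bases 3′ of it. In these 3 genes each displaced entry lay 3′ of the only WT entry.

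Other genes with 3 displaced entries had them on several sides of their WT entries or between them. Kif1b, a kinesin motor gene for axonal transport, had 2 WT entries, neither overlapped, and KO entries with gaps of 27754, 4227 and 209 bases. Asph, a hydroxylase gene, had 3 WT entries and displaced entries before, between and after them. Eif4g1, which encodes the scaffold of the translation initiation complex, had 4 KO entries, of which 1 lay over a WT entry and 3 lay in a row 559, 1485 and 4758 bases 3′ of it (180, 210 and 181 bases). The zinc finger gene Zbtb4 had 1 overlapped WT entry of 3, and its displaced entries lay 88, 2187 and 4136 bases from WT entries. Nrxn2, which encodes a presynaptic neurexin, had 5 KO entries on chromosome 19. Of these, 2 lay inside a WT entry of 957 bases, and 3 lay upstream of it at 6450544, 6490088 and 6517036, the middle one with the p-value 1e-124.

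**Figure D4:**
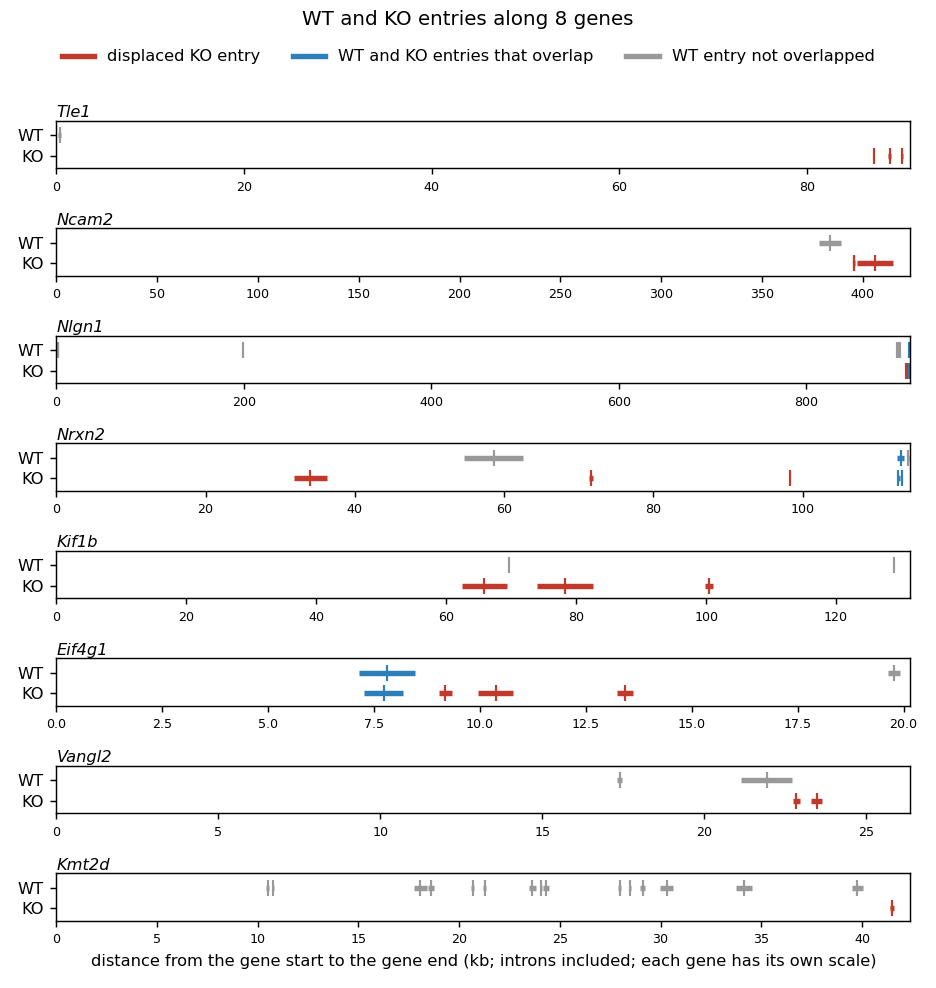
WT and KO entries along 8 genes, drawn by distance from the gene start (kb, introns included, each gene on its own scale), with red for displaced KO entries, blue for WT and KO entries that overlap and grey for WT entries without overlap. Horizontal bars run from the first to the last base of an entry, introns within it included, and vertical ticks mark midpoints. In Tle1 the WT entry lies at the gene start and 3 KO entries at the gene end, and in Kmt2d 1 KO entry follows 15 WT entries.

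By summed exonic length of displaced entries, Tle1 led with 602 bases and was followed by Lrrtm4, a gene of a postsynaptic adhesion protein, with 599. Lrrtm4 had 1 WT entry of 210 bases and, 59 bases 3′ of it, a KO entry of 538 bases. Eif4g1 and Nlgn1 had 571 bases each. Vangl2, a planar cell polarity gene, had 541, Rapgef4, which encodes a cAMP-activated exchange factor for Rap GTPases, 510, and Hnrnpul1 a single entry of 477 on 3 blocks. In Vangl2 both displaced entries lay 3′ of the 2 WT entries, with gaps of 29 and 599 bases. In Rapgef4 both lay 5′ of the WT entry, with gaps of 113519 and 114237 bases.

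Some genes dense in WT entries had no overlap with any of them and a displaced entry beside them. Kmt2d, which encodes a histone H3 lysine methyltransferase, had 15 WT entries and 1 KO entry of 211 bases (chr15:98832479-98832689), 1349 bases 3′ of the last WT entry and 915 bases from the gene end. Pde4dip, which encodes the centrosomal and Golgi protein myomegalin, had 9 WT entries and 1 KO entry of 271 bases between them. The protocadherin gene Pcdh7, the calcium pump gene Atp2b2 and Mdga2, whose product binds neuroligins, had 7 WT entries each. Their displaced entries were 120, 91 and 241 bases wide. Pcdh10, the ephrin receptor gene Ephb2, Ahdc1, Zcchc14 and Zfp318 had 6 each. The gap was 29 bases in Zcchc14, 58 in Ephb2, 179 in Pcdh10, 357 in Ahdc1 and 7048 in Zfp318, so some of these KO entries bordered a WT entry and others did not. These genes were picked for having many WT entries and no overlap, so both facts are descriptions.

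The lowest p-values among displaced entries were spread over genes of different roles. A p-value listed as 0, too small to be held, was given for an entry of Vangl2 (330 bases) and for 1 of the chaperone gene Hsp90ab1 (180 bases), whose other KO entry lay over its WT entry. Ncl, which encodes nucleolin, had its 3 WT entries overlapped by 2 KO entries and another KO entry of 210 bases between them. Rn45s, the precursor of ribosomal RNA, held a displaced entry of 151 bases. It is a multicopy transcript whose reads are hard to assign, and it is the only gene of a displaced entry without an annotated span here. Trmt10a, a tRNA methyltransferase gene, had a KO entry of 361 bases 9856 bases 3′ of its WT entry, with the p-value 1e-153. Nrxn2 and the growth factor gene Igf2 came next, followed by the shared protocadherin place.

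Gene lists were set against the 8.88% of all genes with a WT entry that held a displaced entry. That base includes genes without any KO entry, so a list with more KO entries of any kind can exceed it. Synaptic and postsynaptic genes held one in 16 of 58 (27.6%, interval 17.8 to 40.2). Beside Nrxn2 and Nlgn1 these included the neuroligin gene Nlgn2 with 2 displaced entries and none of 5 WT entries overlapped. The NMDA receptor gene Grin2b had 2 displaced entries and 1 of 6 WT entries overlapped, and the kainate receptor gene Grik2 had 1 entry of 241 bases, 4308 bases 3′ of its WT entry. Nlgn1 had 9 WT entries, of which the last was overlapped. Its displaced entries of 390 and 181 bases lay 1856 and 2365 bases 5′ of that one.

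Cytoskeletal and microtubule genes held a displaced entry in 12 of 45 (26.7%, 16.0 to 41.0), among them Kif1b, the kinesin genes Kif5a and Kif1a with 2 each, the ankyrin gene Ank1 with 2 and the linker gene Clip3 with 1 of 241 bases. In Kif5a 3 of 6 WT entries were overlapped, in Ank1 and Clip3 none of 3. Tubb2b, a beta tubulin gene of young neurons, had a displaced entry of 149 bases with its midpoint 74 bases from the gene start. Axon guidance genes held one in 8 of 53 (15.1%, 7.85 to 27.1). Dpysl5, a gene of the collapsin response family, had its only WT entry overlapped and 2 more KO entries 81895 and 85018 bases 3′ of it, of 151 and 240 bases. The semaphorin gene Sema3a, the semaphorin receptor gene Nrp2, the repulsive guidance gene Rgma and Ephb2 had 1 each. Ion channel genes held one in 5 of 48 (10.4%, 4.53 to 22.2). The calcium channel gene Cacna1c had 2, with neither of its 2 WT entries overlapped, and Kcna2, Cacna1a, Scn8a and Cacna2d2 had 1 each.

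**Figure D5:**
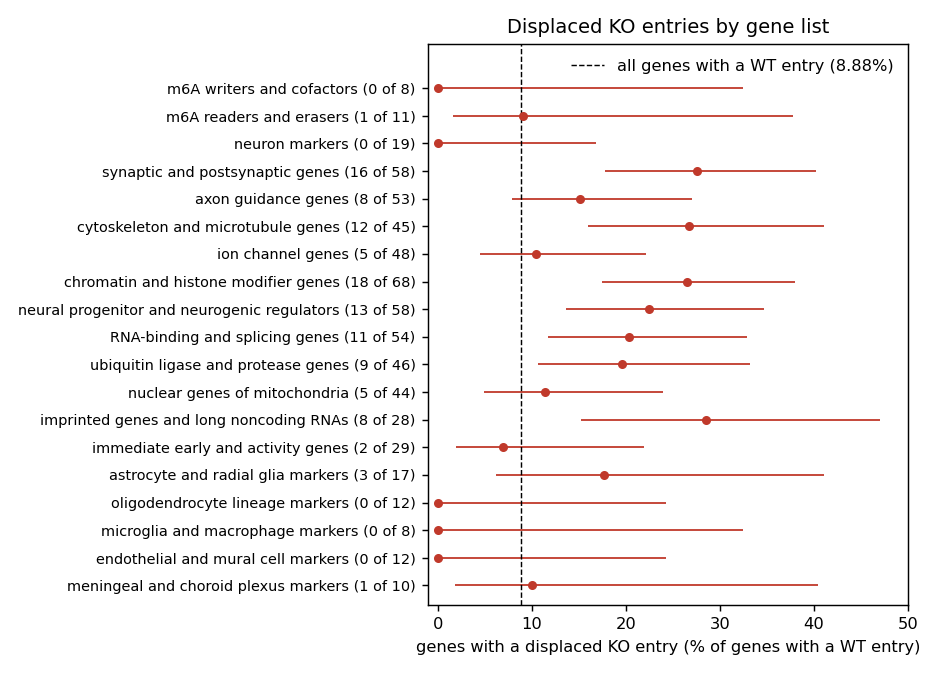
Share of genes with a displaced KO entry (% of the genes of each list that have a WT entry), with Wilson 95% intervals as bars and the share over all genes with a WT entry, 8.88%, as a dashed line. Synaptic, cytoskeletal, chromatin, progenitor, RNA-binding, ubiquitin and imprinted or noncoding lists have intervals above the line, and the neuron marker list is at 0 of 19. All shares count genes without any KO entry in their base.

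Chromatin and histone modifier genes held a displaced entry in 18 of 68 (26.5%, 17.4 to 38.0). Auts2, a Polycomb-associated activator gene of neurodevelopment, had 3 of 5 WT entries overlapped and 2 displaced entries near opposite ends of the gene, at 809 bases from its end and 1109 bases from its start. The demethylase gene Kdm6b, the DNA methyltransferase gene Dnmt3a and the acetyltransferase gene Ep300 had 1 each beside overlapped entries. Neural progenitor and neurogenic regulators held one in 13 of 58 (22.4%, 13.6 to 34.7). The Hedgehog effector gene Gli3, the bHLH factor gene Tcf4 and the nuclear factor I gene Nfia had no WT entry overlapped, while the related Nfix had 6 of 7 overlapped and a further KO entry of 180 bases 149 bases 3′ of the last. RNA-binding and splicing genes held one in 11 of 54 (20.4%, 11.8 to 32.9), among them the ataxin gene Atxn2 with 2, Hnrnpul1, Ncl, the neuronal splicing factor gene Rbfox1 and Khdrbs3. Ubiquitin ligase and protease genes held one in 9 of 46 (19.6%, 10.7 to 33.2). Huwe1, a large ligase gene on the X chromosome, had 2, one of them 59 bases 3′ of a WT entry that no KO entry overlapped, and Otud1, Usp49, Otud7b and Rnf44 had 1 each.

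Many genes of these lists also had overlapped entries: 61.8% of the chromatin genes, 71.1% of the cytoskeletal genes and 51.7% of the synaptic genes, against 20.6% of all genes with a WT entry. Progenitor regulators had one in 44.8% and RNA-binding genes in 53.7%. These lists thus had both overlapped and displaced entries more often than all genes did. Shares among only the genes with a KO entry were not computed. Over all genes, 685 held a displaced entry and 1586 had an overlapped WT entry. These counts were 12 and 32 for cytoskeletal, 11 and 29 for RNA-binding and 18 and 42 for chromatin genes. For synaptic genes the counts were 16 and 30, and for progenitor regulators 13 and 26. A list share above 8.88% is therefore not by itself particular to displaced entries. Of 19 neuron markers with a WT entry, 14 had an overlapped one and 0 a displaced one, and the interval of 0 to 16.8% includes the background of 8.88%. The share over all genes moved with gene length and with the number of WT entries, so the longest length class, in which 16.0% of all genes held a displaced entry, was looked at alone after the values were seen. In that class the interval lay above 16.0% for 4 lists: cytoskeletal genes with 6 of 17 (17.3 to 58.7%), chromatin genes with 9 of 26 (19.4 to 53.8%), progenitor regulators with 9 of 19 (27.3 to 68.3%) and RNA-binding genes with 6 of 13 (23.2 to 70.9%). It included 16.0% for synaptic genes with 8 of 29 (14.7 to 45.7%), axon guidance genes with 5 of 30 (7.34 to 33.6%), ion channel genes with 4 of 25 (6.40 to 34.7%) and ubiquitin genes with 4 of 14 (11.7 to 54.6%). This comparison too counts genes without any KO entry. The parts of the number of WT entries and of the higher share of genes with KO entries of any kind were not tested.

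The counts for transcripts of the m6A machinery did not stand apart from the background. None of 8 writer and cofactor genes with a WT entry held a displaced entry, which allows a share of up to 32.4% by the Wilson interval. Among 11 reader and eraser genes only Alkbh5, which encodes an m6A demethylase, did. It had 4 WT entries of 61 to 181 bases, none overlapped, and a KO entry of 181 bases (chr11:60557733-60557913), 3356 bases 3′ of the last and 689 bases from the gene end. Nuclear genes of mitochondria, listed because the study's title names mitochondrial function, held one in 5 of 44 (11.4%, 4.95 to 24.0), close to the background. Nrf1, a transcription factor gene of mitochondrial biogenesis, had its only WT entry overlapped and 2 further KO entries, of 331 bases 22070 bases 5′ of it and of 61 bases 479 bases 3′ of it. The outer membrane channel gene Vdac1, the prohibitin gene Phb2 and the pyruvate dehydrogenase kinase gene Pdk1 each had a single WT entry that was not overlapped and 1 displaced entry, of 181, 178 and 61 bases.

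For markers of separate cell types with a WT entry, the interval of each list included the background of 8.88%. Astrocyte and radial glia markers held one in 3 of 17 (17.6%, 6.19 to 41.0): the water channel gene Aqp4, the glutamate transporter gene Slc1a2 and Sox9. The Aqp4 entry of 241 bases lay 9133 bases 5′ of its WT entry. Oligodendrocyte lineage markers had 0 of 12, microglia and macrophage markers 0 of 8, and endothelial and mural cell markers 0 of 12, with upper limits of 24.2%, 32.4% and 24.2%. Meningeal and choroid plexus markers had 1 of 10, Igf2. Its KO entry of 210 bases (chr7:142652927-142653136, p-value 1e-106) lay 1019 bases 5′ of its WT entry. No blood cell marker had a WT entry. Immediate early and activity genes held one in 2 of 29 (6.90%, 1.91 to 22.0), the kinase gene Sik1 and the zinc finger gene Egr2, whose WT entries were not overlapped.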

How the data were processed

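For each genotype the authors deposited 1 list of consensus peaks. Per the submitters' processing notes STAR and GRCm38 were used. No source used here gives the peak caller, its thresholds or how libraries were combined. The score column as deposited was taken for a p-value or q-value, without a statement on which, since no score exceeded 0.00015. The 2 lists hold 3733 KO and 15091 WT entries, used as deposited and compared by exonic blocks on the same strand with a minimum of 1 shared base. Start coordinates were taken to count from 0 and are printed counted from 1. Gene spans, names and start windows came from RefSeq tables of GRCm38.p6, in which 99.7% of KO and 99.9% of WT entries matched a gene by name and place. Gene ends are those of the span, so coding and untranslated sequence were not told apart.

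Shares carry Wilson 95% intervals and no test was made, because each genotype has 1 list. All 828 genes of 20 lists were found in the table. Earlier results of these data were known when the members, gene lists and naming rule were chosen. Named genes were up to 10 with most displaced entries, longest displaced length, most WT entries without overlap and lowest p-value, then 5 nearest, 5 farthest, 5 with most blocks and 5 nearest the gene start, and up to 5 of each list, without Gm or Rik names. Not every gene taken by this rule is reported here. The overlap code was tested on simulated data. Python 3.11.15, pandas 2.3.3 and SciPy 1.17.1 were used.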

Additional observations from a re-analysis of the deposited data

How the results depend on the processing

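No paired analysis was possible because each genotype has a single list without library values, which also prevents leaving out a replicate. Of 94 values under 13 alternatives, 70 stayed within the interval of the main value (or, for counts, within 1.5 times). Some of the 70 could not move, so the tally overstates stability. With 50% of the KO exonic bases required for overlap, the added entries have no gap to a WT entry. They were left out of the share within 500 bases and of the 3′ share, which stayed at 21.5% and 58.7%. Ignoring strand or using whole spans left the same 762 entries and moved no value, so these settings hardly test the values. Leaving out the gamma protocadherin place, chosen after seeing the data, left 742 entries in 665 genes with 57.5% on the 3′ side. With a gap of 100 bases counted as overlap the share within 500 bases of a WT entry went from 21.5% to 16.2%. This fall is fixed by the setting, which leaves out the 48 entries with a gap up to 100 bases. In the stronger 50% of the KO list there were 291 displaced entries in 277 genes, 1.03% near the gene start, a median width of 181 bases, 16.5% within 500 bases, 65.3% on the 3′ side, 75.8% of genes without an overlapped WT entry and 29.9% on several blocks. Against as many WT entries as KO entries, taken by lowest p-value, these shares were 5.07% near the gene start, 15.9%, 38.7%, 56.7% and 33.5%, with 9.86% near the gene end. Without recurring p-values there were 434 entries in 411 genes, 15.0% near the gene end, 75.7% of genes without an overlapped WT entry and 27.2% on several blocks. The share near the gene end was 8.41% with a window of 500 bases and 55.1% with 5000, and near the gene start 4.86% with 500 and 1.18% with 100. Other windows redefine the share, so the direction of these changes is fixed too. The causes of the remaining changes were not tested. Depth is unknown, so whether a WT signal at a displaced place was absent or below the caller's threshold cannot be told apart.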

Other observations

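Long noncoding RNA genes held 18 displaced entries (2.37%). The 2.45% of WT entries of the same genes is close by design, since the gene type belongs to the gene. The share was 1.64% of all WT entries, 1.33% of KO entries over a WT entry and 16.5% of KO entries in genes without a WT entry. In the list of imprinted genes and long noncoding RNAs, 8 of 28 genes with a WT entry held one (28.6%, interval 15.3 to 47.1). An overlapped WT entry was found in 39.3% of the 28, against 20.6% of all genes with a WT entry. In the longest length class 1 of 4 held a displaced entry (4.56 to 69.9%), an interval that includes the 16.0% of all genes there. Neat1, the RNA scaffold of paraspeckles, had 2 of 5 WT entries overlapped. These 2 (chr19:5845328-5845478 and chr19:5845331-5845480) mark nearly the same place, as do 2 of the other WT entries. Its 2 displaced entries of 211 and 150 bases lay 1186 and 2295 bases from the gene end. They were 17290 and 16212 bases from the nearest WT entry. Meg3, a maternally expressed RNA, had 1 displaced entry of 181 bases (chr12:109545863-109546043), 3734 bases 5′ of all its 9 WT entries. Dlx6os1, transcribed at the Dlx5 and Dlx6 locus of interneurons, had 1 WT entry that no KO entry overlapped and a displaced entry of 360 bases 2152 bases 3′ of it. Gnas, which encodes a G protein alpha subunit, had 2 of 3 WT entries overlapped and a displaced entry of 150 bases 449 bases 5′ of 1 of these. No displaced entry lay over a microRNA hairpin of the RefSeq table. Such entries were rare in every set: 17 of 15091 WT entries, 2 of 2117 KO entries over a WT entry and 1 of 854 in genes without one.

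Displaced entries that shared a gene were often far apart. Between neighbours in the 69 genes with 2 or 3 of them the median gap was 2451 bases (quartiles 388 and 17422). In 119 of 762 cases the WT entry nearest to a displaced entry was itself overlapped by another KO entry.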
